A study of Homo sapiens with 2 samples.

Results

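The mitochondrial respiratory chain is the set of enzyme complexes in the inner mitochondrial membrane that passes electrons from nutrients to oxygen and uses the energy released to make ATP. Its genes were chosen by name from the probes for transcripts on the array: names beginning with NDUF and a letter (complex I), SDHA to SDHD (complex II), names beginning with UQCR (complex III), names beginning with COX and a digit (complex IV) and names beginning with ATP5 (complex V). The choice gave 90 of 30967 gene names, read by 132 of 40976 probes. By complex these were 40 genes for complex I, 4 for complex II, 7 for complex III, 23 for complex IV and 16 for complex V. Among them, 11 names are assembly factors, relatives or other loci rather than subunits, such as COX10, COX11, COX15, COX17, COX18 and COX19, which help to build complex IV, and COX4NB, now called EMC8, which is no gene of the chain.

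RNA was measured on 2 single-colour oligonucleotide arrays. The untreated array carried RNA from Y79 cells that received no siRNA, and the siRNA array came from Y79 cells 48 h after they were given siRNA against EpCAM. Y79 is an established human retinoblastoma line that grows in suspension. By the study's methods the cells of both cultures had been exposed to 5′-azacytidine, which the sample labels leave out, and an array of cells given a nonsilencing siRNA was not analysed here. With 1 array per condition no test was possible, and the comparison covers these cultures only. The spread that could be measured was technical: over 193 probes printed at repeated spots, the median SD of the log2 ratio was 0.14, and each respiratory chain probe was printed at 1 spot. In bulk RNA, fewer cells of a kind and less RNA per cell cannot be told apart.

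Complex I oxidises NADH and complex II oxidises succinate, and both hand their electrons to ubiquinone. Complex III moves them on to cytochrome c, complex IV passes them to oxygen, and complex V, the ATP synthase, is driven by the proton gradient that complexes I, III and IV build. Photoreceptors are known for dense mitochondria and heavy use of ATP, and the subunits are made partly from nuclear genes and partly from mitochondrial DNA. Only nuclear genes are described here, since no probe carried the name of a mitochondrially encoded subunit in the spellings searched.

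The siRNA target itself could not be read. EpCAM, listed under its older name TACSTD1, gave a processed signal of 15.6 on the untreated array and 12.0 on the siRNA array, not well above background on either. The label of the cell line was checked against markers of the photoreceptor lineage. Of the 13 such markers on the array, 6 were well above background on both arrays, among them CRX and OTX2, transcription factors of photoreceptor precursors, and ARR3 and OPN1SW, genes of cones. The 6 measured markers had a median log2 ratio of -0.35, siRNA over untreated, with 5 of 6 below 0 (at least 4 of 6 in the scaling and background alternatives computed for them, with medians of -0.20 under normexp on all spots and -0.16 with the raw median brightness). OPN1SW gave 546 and 445. ISL1 and THRB were well above background only on the untreated array, at least 1.52-fold and 1.53-fold lower on the siRNA array. MYCN, the only one of the 6 above 0, was at 0.30 at its brightest probe and at -0.47 at its other probe. NRL, NEUROD1, PDE6H, RCV1 and RXRG were not well above background on either array. Markers of other cell types also gave signal, including 4 of 4 for glia, 4 of 5 for fibroblasts, 4 of 4 for blood, 4 of 4 for epithelium, 2 of 3 for endothelium and 2 of 3 for pigment epithelium, so these lists did not set the line apart. The highest ratio among the markers of other cell types was that of the globin gene HBB, at 340 and 1263 (log2 ratio 1.84).

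Promoters of respiratory chain genes are known for sites of NRF1, of the ETS factor GABP and of YY1, and stretches that hold these letters are shown because most of the members lay on the same side of 0. RefSeq promoters (GRCh38.p14), from 250 bases before to 50 after the start of the gene, were found for 74 of the 90 genes and searched on both strands. The letters GCGCATGCG (NRF1) stood in 12 of the 74 (16.2%) and in 2.1% of all 27305 promoters, CCGGAAGT (ETS) in 12 (16.2% against 4.44%) and AAGATGGCG (YY1) in 9 (12.2% against 1.85%). At least 1 of them stood in 28 (37.8%), compared with 7.86% of all promoters, 33.8% of 74 promoters of mitochondrial ribosome genes and 0 of 19 promoters of the V-ATPase, another proton pump. The NRF1 letters overlap their own reverse complement, and such overlapping matches were counted once per promoter. Matches, such as that of SDHB to the YY1 letters, were counted over the whole promoter, while the rule for showing a gene used only the 250 bases before the start. These 250 bases are given for the genes that held at least 2 of the motifs there. They are also given for the gene with the lowest log2 ratio in each complex among those that held any there. They read 5′ to 3′ along the gene, with matches in capitals, and the log2 ratio named is that of the siRNA array over the untreated array.
NDUFS6 (complex I, chr5:1801157-1801406, plus strand, log2 ratio -0.70, NRF1): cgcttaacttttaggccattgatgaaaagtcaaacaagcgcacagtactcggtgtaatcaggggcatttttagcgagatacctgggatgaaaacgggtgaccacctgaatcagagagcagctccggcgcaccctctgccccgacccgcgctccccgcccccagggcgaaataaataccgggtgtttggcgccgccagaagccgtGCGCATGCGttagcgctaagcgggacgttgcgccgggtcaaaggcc
SDHD (complex II, chr11:112086623-112086872, plus strand, log2 ratio -0.27, NRF1 and ETS): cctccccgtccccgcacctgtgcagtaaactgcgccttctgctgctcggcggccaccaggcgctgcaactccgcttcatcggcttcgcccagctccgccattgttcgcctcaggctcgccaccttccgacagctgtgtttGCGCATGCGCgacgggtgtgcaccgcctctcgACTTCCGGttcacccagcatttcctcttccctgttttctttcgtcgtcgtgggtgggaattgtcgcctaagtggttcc
UQCRQ (complex III, chr5:132866392-132866641, plus strand, log2 ratio -0.80, ETS): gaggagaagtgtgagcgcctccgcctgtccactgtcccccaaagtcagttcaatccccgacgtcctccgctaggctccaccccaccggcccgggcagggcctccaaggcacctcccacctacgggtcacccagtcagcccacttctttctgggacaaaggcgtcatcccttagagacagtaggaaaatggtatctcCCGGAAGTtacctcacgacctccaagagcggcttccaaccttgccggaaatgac
COX5B (complex IV, chr2:97645812-97646061, plus strand, log2 ratio -0.55, ETS): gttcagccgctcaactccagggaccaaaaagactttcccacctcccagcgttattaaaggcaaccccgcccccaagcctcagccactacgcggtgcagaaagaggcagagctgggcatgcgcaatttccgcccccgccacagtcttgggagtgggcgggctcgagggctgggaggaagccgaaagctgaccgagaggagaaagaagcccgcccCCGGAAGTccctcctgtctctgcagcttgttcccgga
ATP5J (complex V, chr21:25735055-25735304, minus strand, log2 ratio -0.77, NRF1 and YY1): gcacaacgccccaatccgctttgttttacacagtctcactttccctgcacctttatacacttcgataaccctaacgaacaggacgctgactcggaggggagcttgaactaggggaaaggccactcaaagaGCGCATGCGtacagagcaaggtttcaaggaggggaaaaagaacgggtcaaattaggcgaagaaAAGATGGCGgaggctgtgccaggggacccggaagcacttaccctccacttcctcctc
Measured genes with and without any of the letters had nearly the same median log2 ratio, -0.22 over 23 genes with them and -0.18 over 35 genes without. Below 0 were 17 of the 23 with them and 31 of the 35 without. By motif, the medians were -0.24 over 10 genes with the NRF1 letters, -0.22 over 12 with the ETS letters and -0.36 over 6 with the YY1 letters. Genes without the same letters had medians of -0.17 over 48, -0.20 over 46 and -0.20 over 52. A match is a description of the sequence and not evidence of binding. In the RefSeq gene table the neighbour of ATP5J, now ATP5PF, is GABPA, which encodes a subunit of GABP, and the GABPA probe was dim on both arrays.

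Of the 132 probes, 91 were well above background on both arrays and not saturated, 7 were well above background only on the untreated array, 2 only on the siRNA array, 30 on neither, and 2 were saturated on both. At the level of genes, 73 of 90 had at least 1 measured probe, and the brightest of these stood for the gene. The log2 ratio compares processed signals after division by each array's median, 48.8 for untreated and 50.0 for siRNA, and is positive where the siRNA array was higher. Well above background is the call of the image software. Over the 73 genes the median log2 ratio was -0.15, against -0.02 over all 22103 measured genes, and the middle 50% of the 73 lay between -0.55 and -0.01. The ratio was below 0 for 56 of the 73 genes (76.7%) and for 55% of all measured genes. It was -0.5 or less for 19 of the 73, where 6.6% of all measured genes were, and 0.5 or more for 2 of the 73, where 3.86% of all were. At a log2 ratio or bound of at least 1 there were 2 of 100 member probes, against 1.27% of all 29346 probes with a ratio or bound. At -1 or less there was 0 of the 100, against 0.927% of all. The lowest member gene was at -0.93 in this processing, while with normexp on all spots 22 of the 73 genes were at -1 or less.

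**Figure D1:**
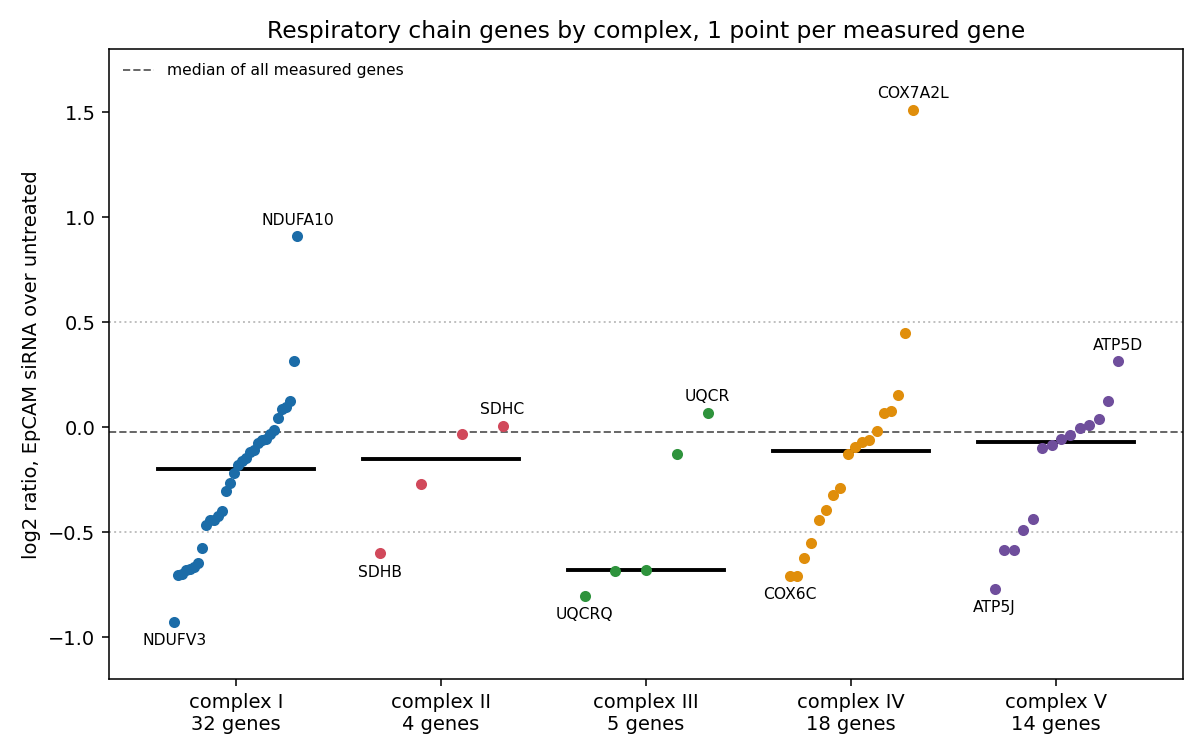
Log2 ratio of processed signal (EpCAM siRNA array over untreated array) of the 73 measured respiratory chain genes, 1 point per gene at its brightest probe, sorted within each complex. Black bars are medians (-0.20, -0.15, -0.68, -0.11 and -0.07 for complexes I to V), the dashed line is the median of all measured genes (-0.02), and the dotted lines stand at 0.5 and -0.5.

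The ratio moved with brightness. Among genes whose geometric mean of both processed signals was 1000 or more, all 24 members were below 0, with a median of -0.52 (after quantile normalization 18 were below 0, with a median of -0.23, and with the brightness trend subtracted 17, with a median of -0.29), while the 1952 genes of that brightness on the whole array had a median of -0.22 and 77.2% below 0. Between 100 and 1000 the 27 members had a median of -0.13 against -0.02 over 10068 genes. Under 100, 11 of 22 members were below 0, and their median of 0.00 lay beside -0.01 over 10083 genes. COX6A1 and ATP5G3 were counted among these 22 through dim probes, since a brighter probe of each was saturated on both arrays and gave no ratio. Across the 73 genes the Spearman correlation of ratio and mean log2 signal was -0.59, against -0.15 across all measured genes, and genes are not independent replicates. When the trend of all measured probes with brightness was subtracted, the members' median was -0.11, 47 of 73 (64.4%) were below 0, against 48.4% of all measured genes under the same correction, and 10 were at -0.5 or less in place of 19. The genes that no longer reached -0.5 were NDUFA4, NDUFA12, NDUFAB1, NDUFB11, UQCRH, COX6C, COX5B, ATP5L and ATP5G1. The trend did not follow the medians of all measured probes closely at high signal. Near a mean log2 signal of 11.75 the trend was -0.24 and the median -0.32, and near 15.25 they were -0.39 and -0.27. COX5B, whose promoter is shown above, came to -0.27 with the trend subtracted and to -0.21 after quantile normalization.

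**Figure D2:**
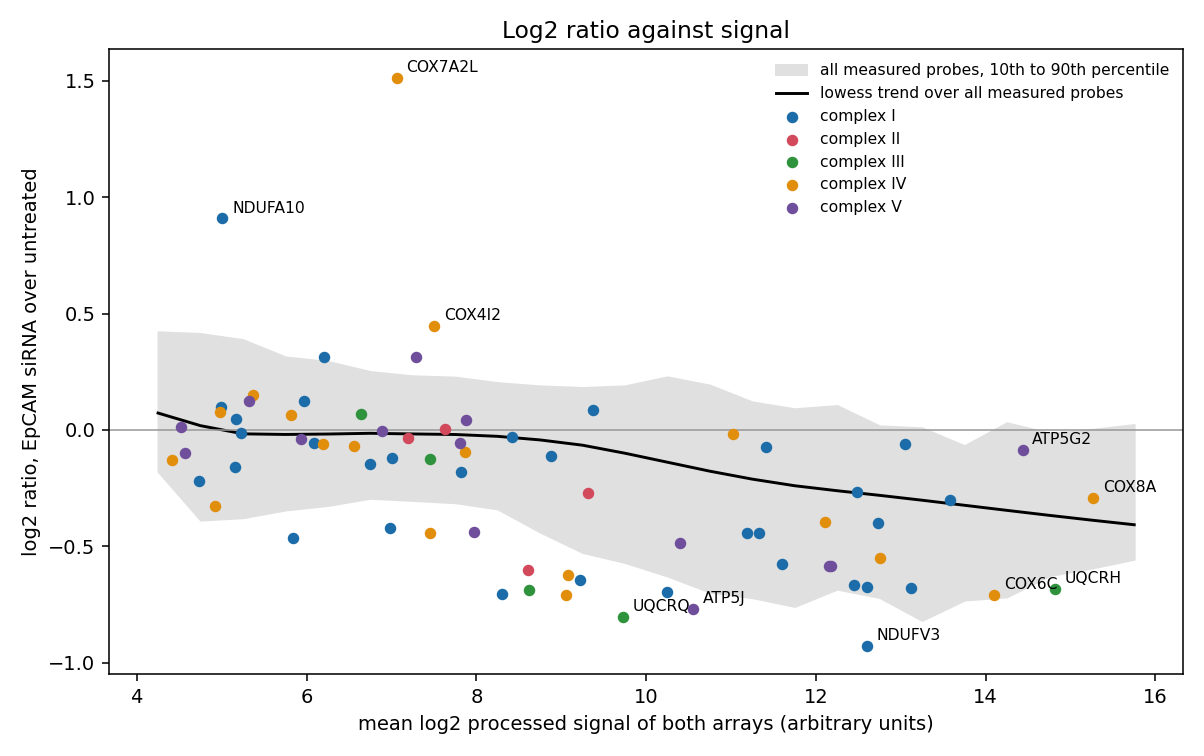
Log2 ratio of each measured respiratory chain gene (points, coloured by complex) against its mean log2 processed signal on both arrays (arbitrary units). The grey band holds the 10th to 90th percentile of all measured probes and the black line is their lowess trend, which descends at high signal. The 24 members with a signal of 1000 or more lie below 0, and 17 of them lie below the trend line.

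Complex I, the NADH dehydrogenase, had 32 of 40 genes measured, with a median of -0.20 and 26 below 0. Lowest was NDUFV3, an accessory subunit of the NADH-binding tip, with 8491 on the untreated array and 4572 after siRNA (log2 ratio -0.93). NDUFS6, an accessory subunit that binds zinc, gave 398 and 250 (-0.70). NDUFB7, which lies on the intermembrane face of the membrane arm, gave 1526 and 964 (-0.70). NDUFAB1, the mitochondrial acyl carrier protein, gave 6949 and 4490 (-0.67). These values depended on the processing. NDUFAB1 was at -0.34 after quantile normalization and -0.40 with the brightness trend subtracted, and NDUFB7 at -0.55 and -0.56. In the same alternatives NDUFV3 was at -0.60 and -0.65, and NDUFS6, at -0.66 and -0.68, was lower than NDUFV3 in both. At the upper end stood NDUFA10, a membrane arm subunit related to nucleoside kinases, at 23.2 and 44.6 (0.91, but 0.20 with normexp fitted without spots dimmer than their local background and 0.23 with the raw median brightness). It was followed by NDUFA8, an intermembrane space subunit, at 65.1 and 83.0 (0.31, and 0.10 with the raw median brightness), and NDUFC2, a membrane arm subunit, at 59.4 and 66.4 (0.13). Normexp with its added offset and the raw brightness both shrink the ratios of dim spots by construction. The 7 core subunits encoded in the nucleus, which carry the flavin and the iron-sulfur clusters or bind them, had a median of -0.07, which became 0.04 after quantile normalization, 0.01 with the brightness trend subtracted and -0.69 with normexp background correction on all spots. The 24 genes counted as accessory subunits, with NDUFA4 among them by its name, had a median of -0.26. This median was below 0 in each of these alternatives (-0.17, -0.19 and -0.53), so the order of core and accessory subunits depended on the processing. All 8 measured NDUFB genes, subunits of the membrane arm, were below 0 (median -0.43), and 7 of the 8 in the same 3 alternatives, with medians of -0.25, -0.29 and -0.76. NDUFV1, the core subunit that binds NADH and FMN, gave 8534 and 8386 (-0.06, but 0.26 after quantile normalization and 0.23 with the trend subtracted), and NDUFS1, the largest iron-sulfur subunit, gave 34.9 and 36.9 (0.05). NDUFV1, NDUFS1, NDUFA12, NDUFAB1, NDUFB11, COX5B, ATP5B and ATP5I lie outside the rule by which genes were named and were picked with their values known. NDUFB1, NDUFB6, COX5A and several genes that were dim on both arrays also lie outside it and gave no ratio.

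NDUFA4 was placed with complex I by its name, though its product is now assigned to complex IV and the current symbol is COXFA4. It was measured by 2 probes, which gave 11130 and 7114 (-0.68) and 172 and 120 (-0.56). At the brighter probe NDUFA4 came to -0.36 after quantile normalization and -0.38 with the brightness trend subtracted. Its relative NDUFA4L2 was too dim on both arrays to give a ratio. NDUFB1 and NDUFB6 were well above background only on the untreated array, at least 1.29-fold and 1.11-fold lower on the siRNA array. For such bounds the dim side was set to the lowest signal that was well above background on its array, or to the probe's own signal if higher. NDUFA5, NDUFA6, NDUFA7, NDUFA9 and NDUFB5 were not well above background on either array, so the arrays say nothing of their change. NDUFAF1, an assembly factor of complex I, gave 133 and 125 (-0.12).

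In complex II, the succinate dehydrogenase shared with the citric acid cycle, all 4 genes were measured. SDHA, the subunit that carries FAD and binds succinate, gave 147 on both arrays (-0.03). SDHB, the iron-sulfur subunit, gave 476 and 321 (-0.60). SDHC, a membrane anchor, gave 196 and 202 (0.01). SDHD, the other anchor, gave 693 and 588 at its brightest probe (-0.27). SDHB alone lay beyond -0.5, and the median of the 4 was -0.15, which became -0.04 without the corner of the array described below, where the brightest SDHD probe lies, -0.04 with the local median subtracted and -0.06 with the raw median brightness. The promoter of SDHD above held both NRF1 and ETS letters. Its 4 probes ranged from -0.38 to -0.05.

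Complex III, the ubiquinol to cytochrome c reductase, had the lowest median, -0.68 over 5 of 7 genes. UQCRQ, a small subunit near the ubiquinone site, gave 1106 on the untreated and 650 on the siRNA array (-0.80), 1.74-fold lower. UQCRB, a subunit that binds ubiquinone, gave 492 and 313 (-0.69). UQCRH, the hinge protein that contacts cytochrome c1, gave 36195 and 23108 (-0.68, but -0.42 after quantile normalization and -0.31 with the brightness trend subtracted). The others lay near 0. UQCRC1, a core protein, gave 181 and 170 (-0.13), and UQCR, now UQCR11, gave 96.3 and 103 (0.07). UQCRFS1, the Rieske iron-sulfur protein that takes electrons from ubiquinol, went the other way. Its probes were not well above background on the untreated array and were well above it on the siRNA array, with signals of 16.4 and 40.2 at one (at least 2.39-fold higher) and 12.1 and 21.0 at the other (at least 1.37-fold higher). UQCRC2 was dim on both arrays. With 5 genes the median of complex III rested on single members: it was -0.31 with the brightness trend subtracted, -0.34 without the corner of the array described below, which took away the brightest UQCRH probe, and -0.13 with dim probes kept. With dim probes kept complex III was no longer lowest, as complexes I, II and IV were at -0.17, -0.15 and -0.25.

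In complex IV, cytochrome c oxidase, 18 of 23 genes were measured, with a median of -0.11 and 13 below 0. With assembly factors and other loci that are not subunits left out, the median of complex IV was -0.19. COX6C, a structural subunit, gave 22142 and 13875 (-0.71, and -0.37 both after quantile normalization and with the trend subtracted). COX11, which helps to insert copper, gave 672 and 421 (-0.71). COX7A2, the isoform of subunit VIIa found outside muscle, gave 666 and 443 (-0.62). The highest ratio of all members was that of COX7A2L, whose product joins complexes III and IV into supercomplexes, at 78.0 and 228 (1.51), a ratio that the second probe of the gene, at 36.9 and 39.8 (0.07), did not share. With the raw median brightness the COX7A2L ratio was 0.61. COX4I2, the isoform of subunit IV known from lung and low oxygen, gave 153 and 214 (0.45, but -0.07 with normexp on all spots), and COX7A1, the muscle isoform of subunit VIIa, gave 38.8 and 44.2 (0.15).

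Isoforms of a subunit could be set side by side by their ratios. For subunit IV, COX4I1 was at -0.06 (73.6 and 72.4) and COX4I2 at 0.45. For subunit VIa, COX6A1 was at 0.07 (54.6 and 58.5), with a further probe saturated on both arrays, and COX6A2 at -0.10 (238 and 228). For subunit VIb, COX6B1 was at -0.44 (203 and 153) and COX6B2, known from testis, at -0.02 (2070 and 2097), which became 0.21 after quantile normalization and 0.18 with the trend subtracted. In VIIa the pair differed by more than 0.7, COX7A2 at -0.62 and COX7A1 at 0.15. COX7B and its testis isoform COX7B2 were not well above background on either array, and COX8A, the ubiquitous isoform of subunit VIII, gave 43111 and 36119 (-0.29), a ratio that became -0.04 after quantile normalization and 0.10 with the brightness trend subtracted. At the brightness of COX8A the trend (-0.39) lay below the median of all measured probes (-0.27). COX5A had 1 probe well above background, on the untreated array only, and it was at least 1.56-fold lower (26.6 and 14.1).

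Complex V had 14 of 16 genes measured, with a median of -0.07 and 10 below 0. ATP5J, coupling factor 6 of the stalk, gave 1943 and 1168 (-0.77), and its promoter is among those above. ATP5L, subunit g of the membrane part, gave 5616 and 3832 (-0.59). ATP5G1, a gene of the c subunit that forms the rotor ring, gave 5511 and 3768 (-0.58). Both ATP5L and ATP5G1 came to -0.25 after quantile normalization and -0.33 with the trend subtracted. Of the other genes of the same c subunit, whose mature protein is identical, ATP5G2 gave 22537 and 21753 (-0.09, but 0.23 after quantile normalization and 0.27 with the trend subtracted). ATP5G1 and ATP5G2 thus did not share a ratio. ATP5G3 was saturated on both arrays at 1 probe (60934 and 60771), which gave no ratio. Its other probe was far dimmer, at 37.8 and 42.2 (0.13), so ATP5G3 could not be compared with them. ATP5D, the delta subunit of the catalytic head, was highest at 138 and 176 (0.31, but -0.18 with normexp on all spots), though its other probe was at -0.14. ATP5H, a stalk subunit, gave 228 and 241 (0.04). The catalytic head as a whole, with 4 measured genes, had a median of -0.02, and its catalytic subunit ATP5B was the lowest of them at -0.49. ATP5B came to -0.31 after quantile normalization and -0.34 with the trend subtracted. ATP5C1 and ATP5F1 were not well above background on either array.

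Several probes of a gene gave a view of how far a single value can be trusted. Of 35 genes with more than 1 probe, 15 had more than 1 measured, and the ratios differed by more than 0.5 in 4 of these and by 0.2 or less in 5. NDUFV3 was read by 3 probes, and the lowest ratio of the members came from only 1 of them. The others were at -0.01 (96.4 and 98.0) and 0.02 (106 and 111). The probe at -0.93 and the probe at -0.01 share 23 of their 60 bases, at chr21:43202103-43202125 on hg17, plus strand. This shared stretch is shown because the probes that contain it disagree.
NDUFV3: atgactacagcacgtacaccttc
NDUFB7 gave -0.70 at 1 probe and -0.11 at the other. NDUFB9, a membrane arm subunit, gave -0.30 and 0.37 at probes that overlap by 30 bases. COX7A2L gave 1.51 and 0.07. By contrast UQCRH (-0.68 and -0.34), COX11 (-0.71 and -0.44), NDUFA4 (-0.68 and -0.56) and ATP5I (-0.44 and -0.60), a subunit of the membrane part of complex V, were lower on the siRNA array at both measured probes, and NDUFA10 was higher at both (0.91 and 0.52). The COX11 probes cover nearly the same stretch (chr17:50395701-50395755 and chr17:50395702-50395761 on hg17), so they are not separate views of the gene. The coordinates of the ATP5I probes also overlap.

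**Figure D3:**
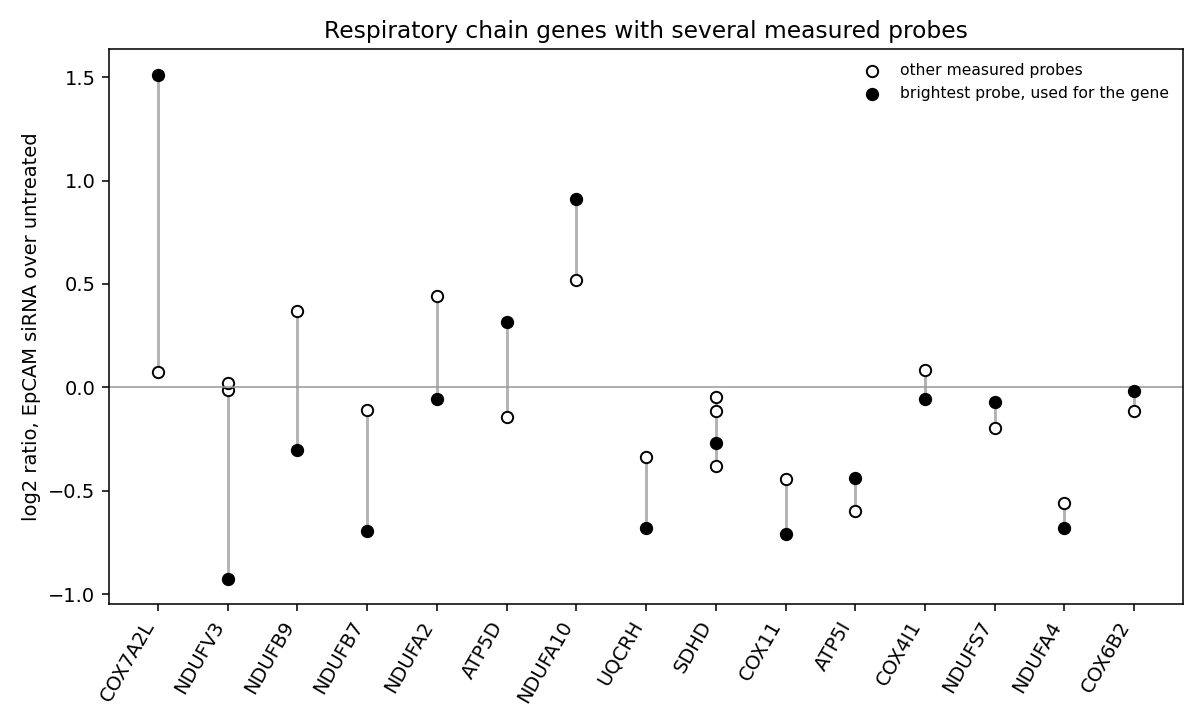
Log2 ratio (EpCAM siRNA over untreated) of each measured probe of the 15 respiratory chain genes with more than 1 measured probe, in order of the difference between probes. Filled points are the brightest probe, used for the gene, and open points the others. COX7A2L differs by 1.44 between its probes and NDUFV3 by 0.95, while COX6B2 differs by 0.10.

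Position on the array mattered for some members. An earlier look at these data had picked out a corner of the array, columns 43 to 85 at the highest row numbers. There the ratios of all measured genes had an SD of 0.51, against 0.28 elsewhere. It held 20 member probes and the value of 9 measured genes, among them both probes of NDUFA10, the brightest probe of UQCRH, NDUFS6 and ATP5D. The median of the local ratios within 15 rows and 15 columns of the NDUFA10 probe was 0.25, and less this median its ratio was 0.66. Outside the corner 50 of 64 members were below 0, with a median of -0.14, against 54.9% of all measured genes there, and 17 of them were at -0.5 or less, as were 1009 of all 18520. The COX7A2L probe, at row 353 and column 30, lies outside it, with a local median of -0.07.

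**Figure D4:**
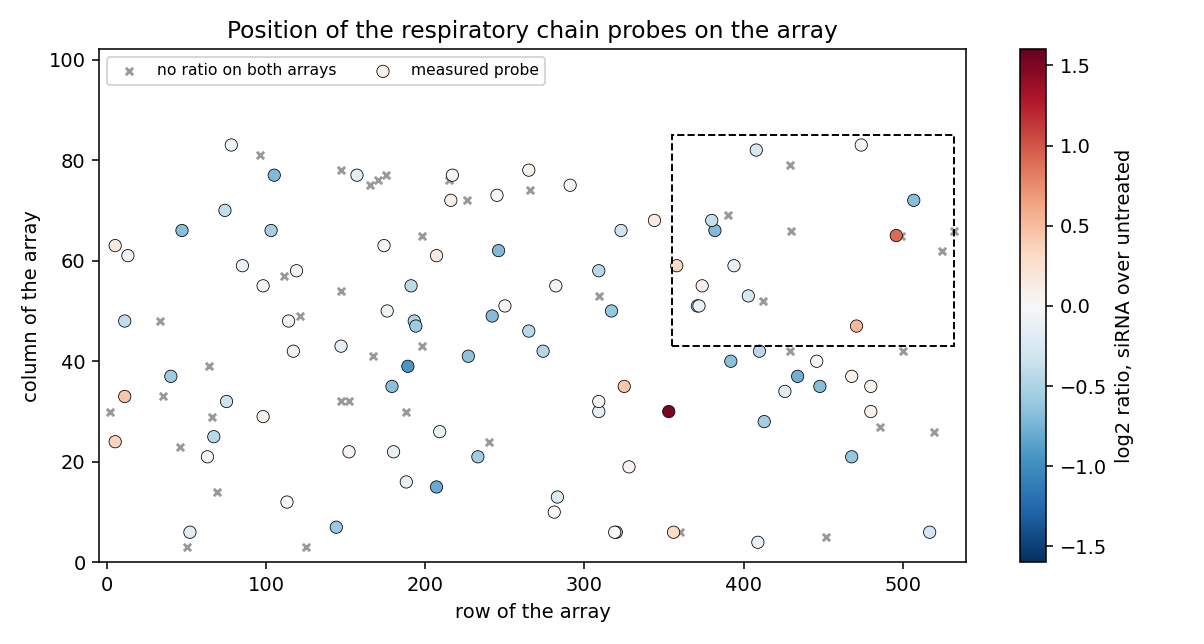
Row and column of each respiratory chain probe on the array, coloured by log2 ratio (EpCAM siRNA over untreated) where measured, with grey crosses for probes without a ratio on both arrays. The dashed box is the corner with the wider spread, which held 20 of the 132 probes, and the darkest red point just outside it is COX7A2L.

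Genes that build or serve the chain gave a mixed picture. Of 17 assembly genes on the array 13 were measured, with a median of -0.06 and 7 below 0, so they had no common direction. COX11 is described above, and COX17, the copper chaperone of complex IV, was at -0.39 (5003 and 3901), or -0.06 after quantile normalization and -0.14 with the trend subtracted. TMEM70, which aids assembly of complex V, was at 0.61 (43.9 and 68.6), and SCO2, which delivers copper, was at 0.47 (90.4 and 129), while its relative SCO1 was at -0.21. COX10 and COX15, enzymes of heme a synthesis, were at 0.08 and -0.13, SURF1, needed early in complex IV assembly, at -0.06, BCS1L, which inserts the Rieske protein, at 0.15, FOXRED1, a complex I factor, at 0.09 and ATPAF2, a chaperone of the catalytic head, at 0.03. ATPAF1, the other such chaperone, gave -0.45 at its brightest probe and 0.88 at a probe in the corner. LRPPRC, which stabilises mitochondrial messenger RNA, was not well above background on the untreated array and was at least 3.79-fold higher on the siRNA array (5.71 and 58.1), at a spot in the corner. COX19 was at least 1.26-fold lower, and COX18 and NUBPL were not well above background on either array. ATPIF1, the inhibitor of complex V, gave 96.5 and 60.8 (-0.70), also in the corner, with -0.31 under normexp on all spots and -0.26 with the raw median brightness.

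The carriers around the chain were mostly lower on the siRNA array, 4 of 5, with a median of -0.52, and at least 4 of 5 under each scaling. The median became -0.27 after quantile normalization, -0.29 with the brightness trend subtracted, -0.28 with normexp fitted without spots dimmer than their local background and -0.13 with the raw median brightness. ETFDH, which passes electrons from fatty acid oxidation to ubiquinone, gave 109 and 34.5 (-1.69) in the corner. ETFA, a subunit of the flavoprotein that feeds it, was at -0.57 in the corner (15054 and 10382) and at -0.67 at a probe outside it, and the gene was at -0.22 after quantile normalization and -0.25 with the trend subtracted. ETFB, its partner, was at -0.33. CYC1, the cytochrome c1 of complex III, which the name rule did not take, was at -0.52 (38.6 and 27.7), in the corner. CYCS, cytochrome c itself, gave 38.6 and 40.1 (0.02) at its measured probe, and another of its probes, in the corner and dim without siRNA, was higher by at least 2.01-fold.

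Among 9 measured genes of coenzyme Q synthesis the median was -0.19, from PDSS1 at -0.78 (370 and 221) to COQ3 at 0.11. Among 9 measured regulators of nuclear respiratory genes it was -0.10, from CREB1 at -1.25 (86.7 and 37.4) to PPARGC1B at 0.35, in the corner, and among 5 measured genes of mitochondrial DNA upkeep it was 0.06, from the DNA binding protein SSBP1 at -1.14 to the helicase PEO1 at 0.39, both in the corner and PEO1 with its other probe at 0.07. The mitochondrial ribosome, also encoded by nuclear genes and imported, had 57 of 77 genes measured, with a median of -0.05 and 54.4% below 0, from MRPL9 at -1.01, in the corner, to MRPS27 at 0.81. The import machinery had 16 of 18 measured, with a median of -0.18 and 13 below 0, from TIMM8A at -0.77, with its other probe at -0.10, to TIMM22 at 0.39. The V-ATPase, a proton pump outside mitochondria, had 19 of 22 measured, with a median of -0.02 and 57.9% below 0, from ATP6V0E at -0.65 (-0.30 after quantile normalization), with its other probe at 0.13, to ATP6V0A4 at 0.94. Large ratios of dimmer genes named here were smaller with the raw median brightness: ETFDH was at -0.68, CREB1 at -0.58, SSBP1 at -0.55, MRPL9 at -0.68, CYC1 at -0.13, TMEM70 at 0.11, SCO2 at 0.20, MRPS27 at 0.35 and ATP6V0A4 at 0.27. The raw brightness keeps the background, which shrinks the ratio of any dim spot, so these values are no test of the ratios. The ribosome median became 0.02 and the V-ATPase median 0.04 after quantile normalization, where coenzyme Q synthesis (-0.16) and import (-0.17) lay below the respiratory chain genes (-0.07). With normexp on all spots the medians were -0.51 for coenzyme Q synthesis, -0.43 for import, -0.19 for the regulators, -0.44 for DNA upkeep, -0.22 for the ribosome and -0.20 for the V-ATPase, and -0.56 for the respiratory chain genes. In the processing used here the respiratory chain genes were at -0.15, and no test of the difference between lists was made.

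**Figure D5:**
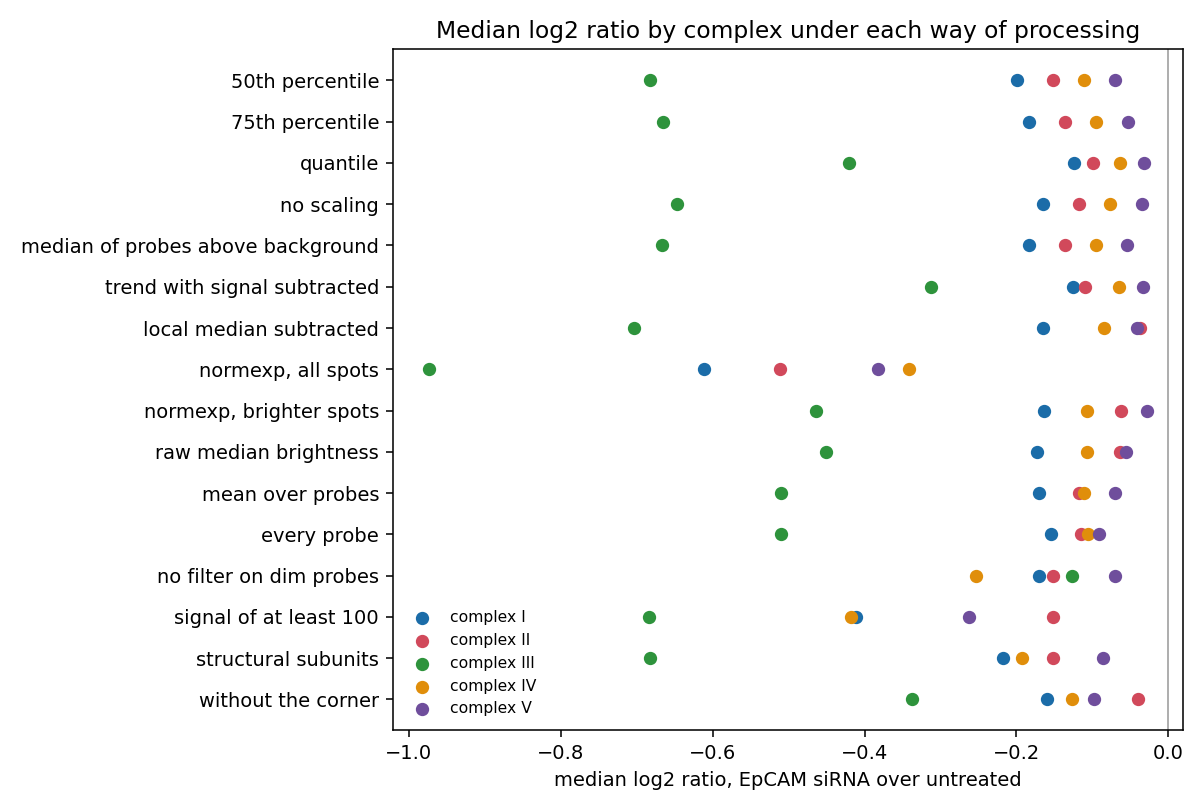
Median log2 ratio (EpCAM siRNA over untreated) of the genes of each complex with the 50th percentile scaling used here (top) and under 15 other ways of processing the same arrays. All medians lie below 0, and complex III moves most, between -0.97 and -0.13.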

How the data were processed

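RNA of 1 untreated and 1 EpCAM siRNA-treated Y79 culture was hybridised to 1 array each. The deposited files hold spot intensity values that the authors made with Agilent Feature Extraction (9.5.3.1 per the file headers, another version in the series text): the processed signal is the spot brightness after background subtraction and correction of trends within the array, not scaled between arrays. The authors' table for the whole series held the raw median brightness, with column medians of 120 and 124, and served as an alternative. After removal of controls and outliers, signals were scaled to the 50th percentile of their array, floored at 0.01, put on a log2 scale and averaged over spots of the same probe (Python 3.11.15, pandas 2.3.3). A probe was measured where at least 50% of its spots were well above background on both arrays and it was not saturated on both. On the untreated array 70.4% of spots were well above background, on the siRNA array 68.0%. The number of arrays limits the precision, and no p-value was computed. The members and lists were chosen with earlier results of these data known. Genes were named by rule: all of complex II, the 3 highest and 3 lowest of each other complex, those with a ratio or bound past 1 or -1, all isoforms, assembly factors and carriers, the extremes of the other lists, and members whose probes differ by more than 0.5. Names are those of the array design. All 90 were matched in RefSeq (GRCh38.p14), where 20 have another symbol, and probe coordinates are on hg17. The lowess trend used statsmodels 0.14.6 with a fraction of 0.3, and normexp used limma 3.58.1 in R 4.3.3 with an offset of 50. The added offset, like the background kept in the raw brightness, shrinks the ratios of dim spots whatever their change. The steps were tested on simulated data. Alternatives changed the scaling, background correction, filters, choice of probe, members and array region.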

Additional observations from a re-analysis of the deposited data

How the results depend on the processing

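Under all 15 alternatives the median log2 ratio of the members and of each complex stayed below 0. The members' median ranged from -0.56 to -0.07 and lay below that of all measured genes in the 14 alternatives where both were computed. Of the 19 genes at -0.5 or less, at least 18 were below 0 in every alternative, and each without a value there had been left out by it. Normexp fitted on all spots moved the median of all measured genes from -0.02 to -0.23. With it the members' median was -0.56, the medians of complexes I to V were -0.61, -0.51, -0.97, -0.34 and -0.38, 38 genes were past 0.5 or -0.5 and 22 past 1 or -1. Fitted without spots dimmer than their local background, an alternative chosen after seeing the data, it gave -0.46 for complex III. Past 0.5 or -0.5 there were 21 genes, but 12 after quantile normalization and 12 with the brightness trend subtracted, where complex III was at -0.42 and -0.31. Past 1 or -1 there was COX7A2L only, and 0 genes with the raw median brightness, the mean over probes, structural subunits or signals of at least 100, and 2 with dim probes kept. Complex III was at -0.45 with the raw brightness, -0.51 with the mean over probes and with every probe counted, -0.13 with dim probes kept and -0.34 without the corner. With signals of at least 100 the members' median was -0.41 and complexes I, IV and V were at -0.41, -0.42 and -0.26. The cause of these shifts was not tested. No named gene beyond 0.5 or -0.5 changed sign. No paired analysis was possible because each condition had 1 array. Signal over background limited 30 probes that were dim on both arrays.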

Other observations

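The 12 genes that were not well above background on either array included subunits that every working complex needs, such as ATP5C1, the central shaft of the ATP synthase, UQCRC2, a core protein of complex III, and NDUFA9, a complex I subunit. ATP5C1 was read by 1 probe, with signals of 8.69 and 7.08, and UQCRC2 by 1 probe, with 3.28 and 4.35. The signals do not tell an absent transcript from a weak probe, and they were not used for any ratio.

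For ATP5J a further probe lies on the opposite strand of the gene, at signals of 12.1 and 12.3, not well above background on either array.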
